A study of Mus musculus with 6 samples.

Results

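The amino acid transporters described here are the members of the *Slc1*, *Slc3*, *Slc6*, *Slc7*, *Slc36*, *Slc38* and *Slc43* gene families, read in corneal epithelial cells of mice after *Ptch1* deletion in the stroma. Members were taken by gene symbol alone, and 56 of the 17784 genes listed had such a symbol. Of these, 55 are transporters by name, and the other is *Slc7a6os*, a gene on the opposite strand of *Slc7a6* whose reads may not be separable from it, since no source used here says whether counting used the strand. Bulk RNA-seq was done on 3 samples of *Prrx1-creERT;Ptch1* mice, labelled KO, and 3 samples of control mice, labelled WT or ctrl. The mice were 10 weeks old at the start according to the labels, both groups were given 3 doses of tamoxifen, and the labels give a treatment of 2 months before the epithelium was lifted off with EDTA. The *Prrx1-creERT* recombinase, switched on by tamoxifen, acts in stromal keratocytes and, per the study, in corneal endothelial cells and other mesenchymal cells of the eye. Whether it acted in the epithelial cells measured here was not tested. The *Ptch1* allele is floxed per the study, and a further genotype of the controls or a pooling of animals is not given in the sources used here. Each sample held between 20296741 and 20625813 expected counts, which are RSEM's estimates of reads per gene.

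Amino acid transporters set which amino acids a cell takes up, exchanges or releases. Sodium-coupled carriers concentrate amino acids inside the cell, exchangers trade an inner amino acid for an outer one, and the light chains of the *Slc7* family reach the membrane only when bound to a heavy chain of the *Slc3* family. In epithelia the same families also carry osmolytes and energy metabolites, such as taurine and creatine, and imported leucine and arginine feed the mTORC1 growth pathway.

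The labelled cell type was checked on its markers. *Krt12*, the corneal keratin, was the most abundant corneal epithelial marker at 44025 to 48396 TPM in the control samples and 37107 to 49487 TPM in the *Ptch1*-ablated samples. Of the 10 markers of this list, *Krt14*, the keratin of basal and progenitor cells, rose from 534, 535 and 644 TPM in the controls to 5798, 3254 and 2420 TPM in the *Ptch1*-ablated samples (log2 fold change 2.81, edgeR adjusted p = 0.00769), *Dsg1a*, a desmosomal cadherin, fell (-0.55, edgeR adjusted p = 0.0183), and the other 8 did not pass the test. TPM is RSEM's transcript level, scaled for gene length and depth so that each sample has the same total. The 11 measured keratocyte markers summed to 10.4, 9.17 and 41.5 TPM in control replicates 1, 2 and 3, and to 9.21, 11.1 and 7.73 TPM in the *Ptch1*-ablated replicates. *Kera* and *Cd34* had at most 3 counts in every sample, and *Col1a2* gave 26.0 TPM of the sum in control replicate 3. In the other 5 samples *Pdgfra* was the most abundant gene of that list, at 3.26 to 6.91 TPM. Among markers of other cells, *Adgre1*, *Cd207*, *Cd3e* and *Lyz2* (immune cells), *Cdh5* (vascular endothelium) and *Mlana*, *S100b* and *Sox10* (melanocytes and Schwann cells) also stayed at or below 3 counts throughout. The 10 immune markers, led by *Itgam*, summed to 129, 142 and 171 TPM in the controls and 214, 155 and 176 TPM in the *Ptch1*-ablated samples. *Itgam* and *Cd68* gave most of these sums in every sample, whereas *Ptprc* had 1 to 9 counts and *Csf1r* 4 to 10. None of the 4 tested immune markers passed the test, 3 lying above 0 and 1 below. For *Itgam* the groups did not overlap (log2 fold change 0.48, edgeR adjusted p = 0.0759, DESeq2 adjusted p = 0.0135). The melanocyte and Schwann cell markers, led by *Pmel*, summed to 10.1 to 11.9 TPM over all samples, and the vascular markers, led by *Tie1*, to 0.890 to 2.65 TPM.

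*Ptch1* itself had 520, 670 and 703 counts in the control epithelium and 377, 434 and 473 in the *Ptch1*-ablated epithelium, a log2 fold change of -0.51 (standard error 0.13, edgeR adjusted p = 0.0401). With each sample left out in turn the edgeR adjusted p was 0.0347 to 0.143, and it was at most 0.05 in 1 of the 6 fits; limma on log2(TPM + 1) gave an adjusted p of 0.0781. *Ptch1*-ablated replicate 1 stood apart from the other samples. A principal component analysis used only the most variable of the tested genes, and its first component held 65.9% of their variance. On this component that replicate lay at 39.2, against 12.9 and 14.5 for the other *Ptch1*-ablated samples and -24.9 to -20.3 for the controls. In such bulk samples, a change in the number of cells of a type and a change in the RNA per cell cannot be told apart.

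Of the 56 members, 40 were detected, defined as 10 or more counts in any sample. The control epithelium used few of them strongly, since 5 had a mean level of at least 100 TPM, 15 of at least 10 TPM and 27 of at least 1 TPM, *Slc7a6os* being among the last 2 counts. *Slc6a6*, the taurine transporter, led with 338 ± 42.8 TPM (SD, n = 3) and ranked 373 among all 17784 genes listed. *Slc38a2*, a sodium-coupled importer of small neutral amino acids, followed at 231 ± 16.9 TPM and *Slc6a14*, a broad importer of neutral and cationic amino acids, at 147 ± 12.7 TPM. *Slc6a8*, the creatine transporter, reached 124 ± 3.35 TPM and *Slc3a2*, the heavy chain of the large neutral amino acid exchangers, 112 ± 15.8 TPM. The next levels belonged to *Slc7a1*, the main cationic amino acid carrier, at 75.6 ± 1.75 TPM, *Slc1a1*, a glutamate and aspartate importer, at 62.1 ± 9.13 TPM, and *Slc7a5*, the light chain that brings in leucine and other large neutral amino acids, at 43.8 ± 6.80 TPM. *Slc38a10* at 41.5 ± 2.12 TPM and *Slc6a9*, the glycine transporter, at 38.2 ± 4.38 TPM closed the first 10. Among these 10, the control samples of *Slc6a8* and *Slc3a2* overlapped, as did those of *Slc7a5* and *Slc38a10*, and of *Slc38a10* and *Slc6a9*, so the order of those neighbours does not hold beyond their spread.

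**Figure D1:**
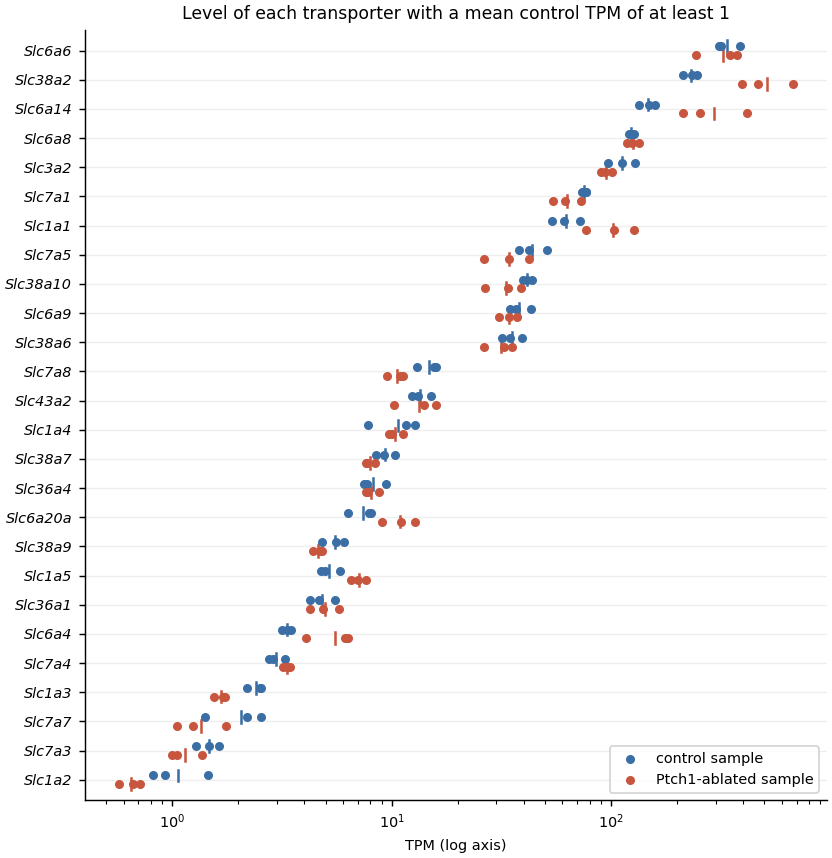
TPM on a log axis for every transporter with a mean control level of at least 1 TPM, with 1 point per sample (blue control, red *Ptch1*-ablated) and a bar at each group mean. *Slc38a2*, *Slc6a14* and *Slc1a1* lie to the right of their control points in all 3 *Ptch1*-ablated samples, whereas the points of *Slc6a6* overlap.

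The 2 groups were compared with edgeR's quasi-likelihood test over the 12999 genes that passed its filter on low counts, with Benjamini-Hochberg adjustment over all of them. A call required an adjusted p no higher than 0.05 together with a fold change of at least 2. The filter passed 36 members, of which 35 are transporters by name, and 31 of the 36 had at least 10 counts in every sample. *Slc6a2*, *Slc6a18*, *Slc6a19* and *Slc38a11* were detected but fell under the filter. *Slc38a2* and *Slc6a14* rose and *Slc7a2* fell past both thresholds, which makes 3 of 36 (8.33%) against 3.23% of all genes tested, with 2.34% called up and 0.892% called down. *Slc7a2* had at least 10 counts in all samples of the control group only, where it was high. Of the 31 members with at least 10 counts in every sample, 2 were called, so the shares of calls are a description. At an adjusted p of at most 0.05 and any fold, 6 members passed (16.7%), against 14.0% of all genes tested. *Slc1a1* and *Slc6a4* then joined those that rose, which made 4 (7.61% of all genes), and *Slc7a8* those that fell, which made 2 (6.41% of all genes), and 30 members did not pass.

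More members lay below 0 than above in the *Ptch1*-ablated epithelium, at 23 and 13, against 6700 and 6299 of all genes tested. The median was -0.12 for the members and -0.01 over all genes tested. The median absolute log2 fold change was 0.32 for the members and 0.20 for all genes. The samples of the groups did not overlap for 17 members, 9 higher and 8 lower in the *Ptch1*-ablated samples, against 39.9% of all genes tested, with 19.7% higher and 20.3% lower. A comparison chosen after the values were seen used the 214 other tested genes with an *Slc* symbol. These were taken by symbol alone and include genes that are not carriers, such as the scaffold *Slc9a3r1*. Of them, 13 were called (6.07%, against 8.33% of the members) and 43 passed the adjusted p alone (20.1%, against 16.7% of the members).

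**Figure D2:**
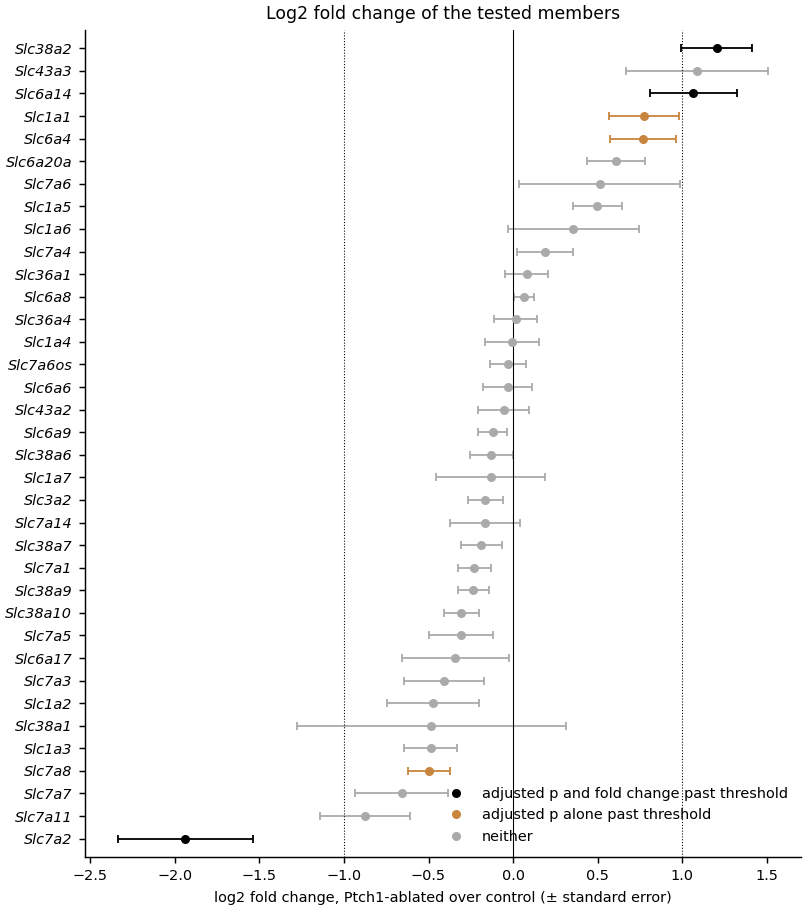
Log2 fold change of each of the 36 tested members, *Ptch1*-ablated over control, with its standard error from edgeR's quasi-likelihood fit and dotted lines at a fold change of 2 in either direction. *Slc38a2* and *Slc6a14* at the top and *Slc7a2* at the bottom pass both thresholds, and the wide bar of *Slc38a1* belongs to a gene near the count minimum.

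The *Slc38* family carries glutamine, alanine and other small neutral amino acids, and *Slc38a2* is its member best known for induction when amino acids run short or the medium is hypertonic. *Slc38a2* (gene 67760) had 9635, 10191 and 10778 counts in control replicates 1, 2 and 3, and 30532, 20346 and 16915 counts in the *Ptch1*-ablated replicates. Every *Ptch1*-ablated sample was above every control sample, and replicate 1 was the highest. Normalized for library composition, the means were 10018 ± 444 and 23094 ± 7607 counts (SD, n = 3), a 2.31-fold rise (log2 fold change 1.20, standard error 0.21, edgeR adjusted p = 0.0166). Its level went from 231 to 513 TPM, which moved it from the second to the first place among the members.

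None of the other 5 tested members of the family passed the test, and all 5 lay below 0. *Slc38a10* showed a log2 fold change of -0.31 (standard error 0.10, edgeR adjusted p = 0.0846) and *Slc38a9*, a lysosomal carrier that reports arginine to mTORC1, of -0.24 (standard error 0.09, edgeR adjusted p = 0.118). The *Ptch1*-ablated samples of both were below all control samples in normalized counts, at 1059.6 to 1392 against 1493 to 1606 for *Slc38a10* and at 357 to 369 against 389 to 469 for *Slc38a9*. *Slc38a6* (-0.13), *Slc38a7* (-0.19) and *Slc38a1* (-0.48) overlapped between the groups. *Slc38a2* made up 71.5% of the summed TPM of the family in the controls and 86.3% in the *Ptch1*-ablated samples.

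Because *Slc38a2* and *Slc6a14* carry the rise among the abundant members, the 250 bases upstream of their start sites are shown, from RefSeq's annotation of GRCm38.p6. Capitals mark the matches to 3 motifs that were searched on both strands, namely TGATGNAA (core of the C/EBP-ATF response element), TGACNNNGC (core of the antioxidant response element) and TGANTCA (AP-1). The *Slc38a2* window is chr15:96699729-96699978 on the minus strand and the *Slc6a14* window is chrX:21714650-21714899 on the plus strand.
Slc38a2: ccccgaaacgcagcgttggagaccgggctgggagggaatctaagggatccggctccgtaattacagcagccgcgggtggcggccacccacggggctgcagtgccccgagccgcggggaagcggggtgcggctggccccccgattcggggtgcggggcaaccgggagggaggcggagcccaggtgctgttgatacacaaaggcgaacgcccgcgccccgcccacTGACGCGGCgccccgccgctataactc
Slc6a14: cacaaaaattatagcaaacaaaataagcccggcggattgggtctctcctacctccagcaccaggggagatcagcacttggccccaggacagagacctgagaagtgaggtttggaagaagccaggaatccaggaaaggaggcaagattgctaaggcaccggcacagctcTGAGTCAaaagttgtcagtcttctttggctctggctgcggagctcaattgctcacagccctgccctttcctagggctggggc
The *Slc38a2* window holds 1 match to TGACNNNGC and none to the other motifs, and its first base lies 27 bases before the start site. The *Slc6a14* window holds 1 match to TGANTCA, whose first base lies 82 bases before the start site. TGACNNNGC occurs in 10.2% and TGANTCA in 6.75% of the 32817 promoter windows of the same length, and TGATGNAA in 3.45%. Promoters were matched for 27 of the 36 tested members, and beside *Slc38a2* and *Slc6a14* the motifs occurred in *Slc7a7* and *Slc7a11* (TGATGNAA), in *Slc6a9*, *Slc7a1* and *Slc7a6* (TGACNNNGC) and in *Slc6a17*, *Slc7a1*, *Slc38a7* and *Slc38a10* (TGANTCA). A match of letters is a description of the sequence and shows no binding. Sequence outside these upstream windows, introns included, was not searched, so a motif missing from a window may lie elsewhere in the gene.

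The amino acid carriers of the *Slc6* family use the sodium and chloride gradients. *Slc6a14* (gene 56774), which accepts nearly all neutral and cationic amino acids, had 4443, 4778 and 5113 counts in the controls and 13935, 8148 and 6684 counts in *Ptch1*-ablated replicates 1, 2 and 3. The groups did not overlap, and replicate 1 again stood highest, as for *Slc38a2*. The normalized means were 4692 ± 274 and 9807 ± 4073 counts, a 2.09-fold rise (log2 fold change 1.06, standard error 0.26, edgeR adjusted p = 0.0373), and its level went from 147 to 295 TPM. In a fit with the replicate number as a block, its log2 fold change was 0.99 (edgeR adjusted p = 0.0491), short of 2-fold.

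*Slc6a20a*, a carrier of proline and other imino acids whose near copy *Slc6a20b* had at most 5 counts, had 6.30, 8.03 and 7.88 TPM in the controls and 12.7, 9.06 and 11.0 TPM in the *Ptch1*-ablated samples, without overlap (log2 fold change 0.61, standard error 0.17). Its edgeR adjusted p of 0.0544 missed the threshold, while DESeq2 gave an adjusted p of 0.0315. *Slc6a9* (log2 fold change -0.12, standard error 0.09, edgeR adjusted p = 0.363) and *Slc6a17* (-0.34, standard error 0.32) overlapped between the groups.

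Of the members whose substrates are not amino acids in the strict sense, the monoamine carrier *Slc6a4* moved. *Slc6a4* (gene 15567), the serotonin transporter, had 88, 81 and 89 counts in the controls and 167, 104 and 153 counts in the *Ptch1*-ablated samples. Each *Ptch1*-ablated sample was above the controls, replicate 2 by the least. The normalized means of 84.5 ± 4.24 and 144 ± 33.8 counts differed by a log2 fold change of 0.77 (standard error 0.20, edgeR adjusted p = 0.0432), short of 2-fold. Its control level of 3.32 TPM was low beside the abundant members.

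*Slc6a6* and *Slc6a8*, the taurine and creatine transporters, did not pass the test. *Slc6a6* had 309, 387 and 317 TPM in the controls and 245, 349 and 374 TPM in the *Ptch1*-ablated samples, with a log2 fold change of -0.03 (standard error 0.14, edgeR adjusted p = 0.895). *Slc6a8* had 121, 127 and 123 TPM and then 119, 125 and 134 TPM, with a log2 fold change of 0.06 (standard error 0.06, edgeR adjusted p = 0.475). For *Slc6a6* the direction was not stable, since the log2 fold change was 0.11 without *Ptch1*-ablated replicate 1 and 0.07 without control replicate 2.

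**Figure D3:**
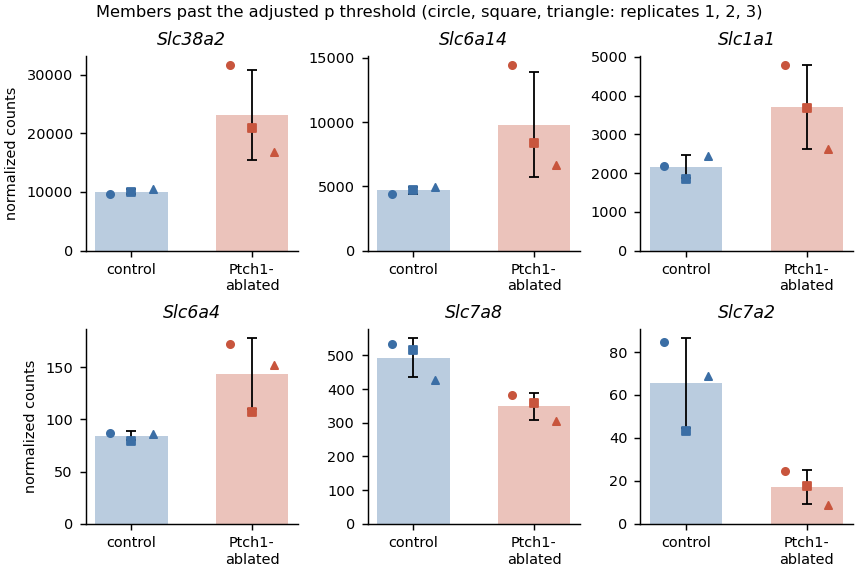
Normalized counts of the 6 members with an adjusted p of at most 0.05, with bars at the group means, error bars of 1 SD and 1 marker per sample (n = 3 per group). The groups do not overlap for any of the 6, and *Ptch1*-ablated replicate 1 (circle) is the highest *Ptch1*-ablated sample in all 6 panels, including those of *Slc7a8* and *Slc7a2*, where it lies nearest to the controls.

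Cationic amino acid carriers bring in arginine, lysine and ornithine. *Slc7a2* (gene 11988), an arginine carrier known for its induction in inflamed and activated cells, had 85, 44 and 71 counts in the controls and 24, 17 and 9 counts in the *Ptch1*-ablated samples. All *Ptch1*-ablated samples lay below the lowest control sample. The normalized means were 65.5 ± 20.8 and 17.1 ± 7.93 counts, a 3.83-fold fall (log2 fold change -1.94, standard error 0.40, edgeR adjusted p = 0.0251). The gene was scarce at 0.897 TPM in the controls and 0.227 TPM in the *Ptch1*-ablated samples, and it had at least 10 counts in all samples of the control group only.

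*Slc7a1*, with a far higher level, had 73.6, 76.6 and 76.7 TPM in the controls and 54.5, 72.7 and 61.3 TPM in the *Ptch1*-ablated samples. The groups did not overlap, but the log2 fold change of -0.23 (standard error 0.10) had an edgeR adjusted p of 0.147. *Slc7a3* (-0.41), *Slc7a4* (0.19) and *Slc7a14* (-0.17) did not pass the test. The summed level of the 5 cationic carriers was 81.4 ± 1.95 TPM in the controls and 68.0 ± 9.24 TPM in the *Ptch1*-ablated samples, most of it from *Slc7a1*.

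The light chains of the *Slc7* family are partners of the heavy chain *Slc3a2*. *Slc7a8* (gene 50934), which exchanges neutral amino acids large and small, fell. It had 538, 526 and 441 counts in the controls and 371, 350 and 306 counts in the *Ptch1*-ablated samples, which were all below the lowest control. The normalized means were 493 ± 57.1 and 349 ± 40.4 counts (log2 fold change -0.50, standard error 0.12, edgeR adjusted p = 0.0387).

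The other light chains did not pass the test. *Slc7a5* had 37.9, 51.3 and 42.2 TPM in the controls and 34.4, 42.1 and 26.2 TPM in the *Ptch1*-ablated samples (log2 fold change -0.31, standard error 0.19, edgeR adjusted p = 0.290), and the groups overlapped. *Slc7a11*, the cystine and glutamate exchanger that feeds glutathione synthesis, was near the detection limit with 21, 24 and 20 counts in the controls and 12, 11 and 11 counts in the *Ptch1*-ablated samples. These did not overlap, and the log2 fold change of -0.88 (standard error 0.26) had an edgeR adjusted p of 0.0643, which became 0.0462 when only genes with at least 10 counts in every sample were tested. *Slc7a7*, an exchanger of cationic for neutral amino acids, showed a log2 fold change of -0.66 (standard error 0.27, edgeR adjusted p = 0.141) and *Slc7a6*, its close relative, of 0.51 (standard error 0.48, edgeR adjusted p = 0.490). *Slc7a10* and *Slc7a13* were not detected.

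The heavy chain *Slc3a2* had 96.5, 128 and 112 TPM in the controls and 93.6, 101 and 90.3 TPM in the *Ptch1*-ablated samples, with overlap (log2 fold change -0.16, standard error 0.10, edgeR adjusted p = 0.298). *Slc3a1*, the heavy chain of the cystine and dibasic amino acid exchanger of kidney and gut, had at most 7 counts in any sample and was not tested. The light chains that pair with *Slc3a2* summed to 61.7 ± 7.83 TPM in the controls and 47.2 ± 8.76 TPM in the *Ptch1*-ablated samples. *Slc3a2* stood at 1.82 times that sum in the controls and 2.04 times in the *Ptch1*-ablated samples, and these ratios overlapped.

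In the *Slc1* family, *Slc1a1* (gene 20510) was the most abundant of the 5 detected glutamate and aspartate carriers. It had 2207, 1883 and 2516 counts in the controls and 4627, 3600 and 2638 counts in the *Ptch1*-ablated samples. The lowest *Ptch1*-ablated sample, replicate 3, was only just above the highest control. The normalized means were 2162 ± 297 and 3701 ± 1078 counts (log2 fold change 0.78, standard error 0.21, edgeR adjusted p = 0.0480), a rise short of 2-fold. Without *Ptch1*-ablated replicate 1 the log2 fold change was 0.55 and the edgeR adjusted p 0.0770. *Slc1a1* gave 93.6% of the summed TPM of the 5 glutamate carriers in the controls and 97.1% in the *Ptch1*-ablated samples.

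*Slc1a3*, a glutamate carrier typical of glia, went the other way without passing the test, at 2.18 to 2.53 TPM in the controls and 1.55 to 1.74 TPM in the *Ptch1*-ablated samples (log2 fold change -0.49, edgeR adjusted p = 0.0747). *Slc1a2* (-0.47), *Slc1a6* (0.36) and *Slc1a7* (-0.13) overlapped between the groups. Of the neutral amino acid exchangers, *Slc1a5*, a main entry for glutamine, had 4.74, 5.82 and 4.98 TPM in the controls and 7.66, 7.03 and 6.55 TPM in the *Ptch1*-ablated samples. These did not overlap, and the log2 fold change of 0.50 (standard error 0.14) had an edgeR adjusted p of 0.0567. *Slc1a4*, its relative for alanine, serine and cysteine, showed a log2 fold change of -0.01 (standard error 0.16).

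The proton-coupled carriers *Slc36a1* (0.08) and *Slc36a4* (0.01) overlapped between the groups, with summed levels of 13.0 TPM in both. In the *Slc43* family, *Slc43a2*, a carrier of large neutral amino acids, had a log2 fold change of -0.06. *Slc43a3*, known as a carrier of purine bases, had 15, 5 and 11 counts in the controls and 26, 16 and 22 counts in the *Ptch1*-ablated samples. It had at least 10 counts in all samples of the *Ptch1*-ablated group only, and its log2 fold change of 1.09 (standard error 0.42) had an edgeR adjusted p of 0.117.

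The summed level of the transporters was 1244, 1437 and 1359 TPM in control replicates 1, 2 and 3, and 1955, 1705 and 1580 TPM in the *Ptch1*-ablated replicates. The *Ptch1*-ablated samples were all above the controls, and the ratio of the means was 1.30, or 1.22 without *Ptch1*-ablated replicate 1. *Slc38a2* and *Slc6a14* carried this difference. Without both, the sums were 968 ± 80.3 TPM in the controls and 938 ± 65.5 TPM in the *Ptch1*-ablated samples and overlapped. *Slc38a2* took 17.2% of the summed level in the controls and 29.0% in the *Ptch1*-ablated samples, *Slc6a14* took 10.9% and 16.6%, and *Slc6a6* took 25.0% and 18.9%. Since *Slc38a2* and *Slc6a14* were among the members called, these sums describe the same rise and are no further evidence for it.

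**Figure D4:**
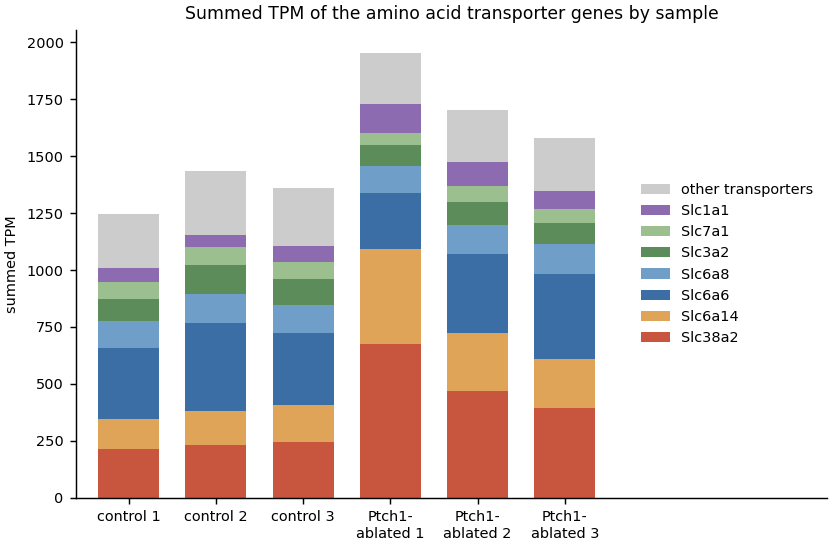
Stacked bars of the summed TPM of the 55 transporters in each of the 6 samples, with the 7 most abundant named and the others in grey. The bars of the *Ptch1*-ablated samples, between 1580 and 1955 TPM, are taller than those of the controls by their *Slc38a2* and *Slc6a14* segments.

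The summed markers of neighbouring epithelia were also highest in *Ptch1*-ablated replicate 1, although single markers differed. *Agr2* (conjunctival list) and *Cd63* (limbal list) were highest in control replicate 3, and *Ifitm3* (limbal list) in *Ptch1*-ablated replicate 2. *Abcg2* (limbal list) was highest in control replicate 1, at 25.95 TPM, and lowest in *Ptch1*-ablated replicate 1, at 13.17 TPM. *Spdef* (conjunctival list), with at most 9 counts, was highest in *Ptch1*-ablated replicate 2. The 7 measured conjunctival and goblet cell markers summed to 1415, 1884 and 2366 TPM in the controls and 4755, 2209 and 2948 TPM in the *Ptch1*-ablated samples, with *Krt13* the most abundant and *Tff1* at no more than 3 counts, and none of the 5 tested passed the edgeR adjusted p, 3 of them having an unadjusted p under 0.05. DESeq2 called 1 of the 5, *Krt4* (log2 fold change 1.80, DESeq2 adjusted p = 0.0397, edgeR adjusted p = 0.0685). The 7 measured limbal markers summed to 1079, 1418 and 2166 TPM in the controls and 4000, 1726 and 2919 TPM in the *Ptch1*-ablated samples, with *Krt15* the most abundant, and 2 of the 7 were called up (*Krt17* and *Tfrc*; 28.6%, against 2.34% of all genes tested called up), while *Abcg2* fell at the adjusted p alone. Both sums were highest in *Ptch1*-ablated replicate 1, as were *Slc38a2*, *Slc6a14* and *Slc1a1*. *Ptch1*-ablated replicate 2 was the second highest sample for these 3 transporters but was below control replicate 3 in both sums. Without *Ptch1*-ablated replicate 1, the mean sums were 1.37 times (conjunctival) and 1.49 times (limbal) those of the controls. *Krt14* had the same order over the *Ptch1*-ablated samples as *Slc38a2*, *Slc6a14* and *Slc1a1*. The part of basal, conjunctival, limbal or immune cells in the transporter results was not tested.

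Each call among the members was lost in some edgeR fits that left out 1 sample. With 1 sample left out in turn, *Slc38a2* kept an adjusted p of at most 0.05 in 4 of 6 fits and its call in 3, and the edgeR adjusted p was 0.0539 without control replicate 1 and 0.0810 without control replicate 2. Without *Ptch1*-ablated replicate 1 its log2 fold change was 0.92 with an edgeR adjusted p of 0.00520, past the adjusted p but short of 2-fold. *Slc6a14* passed the adjusted p in 2 of 6 fits and was called in 1, with a log2 fold change of 0.68 and an edgeR adjusted p of 0.0139 without *Ptch1*-ablated replicate 1. *Slc7a2* passed and was called in 2 of 6, *Slc7a8* passed in 2, and *Slc6a4* and *Slc1a1* in 1 each. No direction changed among the 6 in these fits. Over all genes the number of calls varied as well, from 59 without control replicate 2 to 430 without *Ptch1*-ablated replicate 3.

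**Figure D5:**
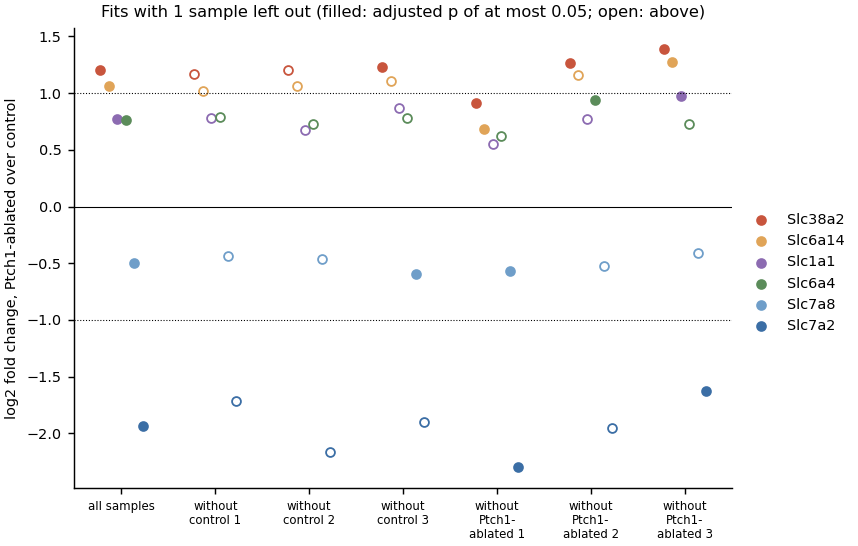
Log2 fold change of the 6 members with an adjusted p of at most 0.05, from edgeR fits on all samples and with each sample left out in turn (filled points, adjusted p of at most 0.05; open points, above; dotted lines, a fold change of 2). Each gene keeps its side of 0 in every fit, and *Slc38a2* and *Slc6a14* drop below the upper dotted line without *Ptch1*-ablated replicate 1.

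Genes that regulate, accompany or respond to amino acid supply were read from 6 lists, with 129 genes tested. Of these, 4 were called (3.10%, against 3.23% of all genes tested) and 22 passed the adjusted p alone (17.1%, against 14.0%), 11 up and 11 down, with a median log2 fold change of -0.01, so their shares lie near those of all genes. The ATF4 list holds the kinases and targets of the amino acid and stress response, and 5 of its 27 tested genes rose and 2 fell at the adjusted p (25.9%, against 14.0% of all genes tested), with a median of 0.10. *Nupr1*, a stress-induced chromatin protein, rose from 111 ± 26.3 to 425 ± 222 normalized counts (log2 fold change 1.94, edgeR adjusted p = 0.0204), and *Ppp1r15a*, the phosphatase cofactor that reverses eIF2 phosphorylation, rose from 776 ± 132 to 1950.1 ± 729 (1.33, edgeR adjusted p = 0.0207). *Vldlr*, a lipoprotein receptor, fell from 381 ± 43.2 to 145 ± 68.9 (-1.39, edgeR adjusted p = 0.0266). With 1 sample left out in turn, *Nupr1* and *Ppp1r15a* kept the call in 3 of 6 fits and *Vldlr* in 2, and without *Ptch1*-ablated replicate 1 *Ppp1r15a* lay at 0.99 (edgeR adjusted p = 0.0130) and *Vldlr* at -1.30 (edgeR adjusted p = 0.0556). The other genes past the adjusted p were *Eif2ak3*, *Psat1* and *Cebpb*, which rose, and *Cebpg*, which fell. *Atf4* itself had 4824, 3387 and 3287 counts in the controls and 6365, 3829 and 3680 counts in the *Ptch1*-ablated samples, with overlap (0.32, standard error 0.25, edgeR adjusted p = 0.397), and its log2 fold change was 0.01 without *Ptch1*-ablated replicate 1. *Atf3*, a stress-induced transcription factor, had the largest log2 fold change of the list without passing the test. It had 429, 41 and 29 counts in the controls and 911, 869 and 1593 counts in the *Ptch1*-ablated samples, and the groups did not overlap, with control replicate 1 far above the other controls (2.79, standard error 0.86, edgeR adjusted p = 0.0675). It was called without control replicate 1 and by limma on log2(TPM + 1) and on log2(TPM + 0.1). *Asns*, asparagine synthetase and a classical target, showed a log2 fold change of -0.55 (standard error 0.35, edgeR adjusted p = 0.305) and *Chac1*, which degrades glutathione, of 0.91 (standard error 0.36, edgeR adjusted p = 0.126), and both overlapped.

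Among 13 tested partners and regulators, 4 rose and 1 fell at the adjusted p (38.5%, against 14.0% of all genes tested) and none was called. *Sgk1*, a kinase that raises the surface amount of several sodium-coupled carriers, rose from 6629 ± 315 to 10414 ± 1425 normalized counts (0.65, edgeR adjusted p = 0.0141). *Myc*, a transcription factor that drives transporters of glutamine and leucine in growing cells, rose from 688 ± 26.2 to 1294 ± 299 (0.91, edgeR adjusted p = 0.0153). *Nedd4l*, a ubiquitin ligase that removes carriers from the membrane, rose by a smaller amount (0.30, edgeR adjusted p = 0.0307), as did the scaffold *Slc9a3r1* (0.33, edgeR adjusted p = 0.0284), and *Prkcz* fell (-0.37, edgeR adjusted p = 0.0317). *Nfe2l2*, the regulator of antioxidant genes, showed a log2 fold change of -0.09 (standard error 0.08, edgeR adjusted p = 0.471).

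The list of other amino acid carriers, which holds mitochondrial, lysosomal and peptide carriers, had a median log2 fold change of -0.23 over its 20 tested genes, with 1 up and 3 down at the adjusted p, that is 4 of 20, against 14.0% of all genes tested. *Slc25a29*, a mitochondrial carrier of basic amino acids, fell from 112 ± 17.0 to 51.3 ± 8.06 normalized counts and was the 1 gene called (-1.12, edgeR adjusted p = 0.0168). With 1 sample left out in turn it kept the call in 5 of 6 fits, and without control replicate 2 the edgeR adjusted p was 0.0803. Limma on log2(TPM + 1) gave a log2 fold change of -0.93, short of 2-fold. The aspartate and glutamate carriers of mitochondria moved apart, as *Slc25a12* fell (-0.51, edgeR adjusted p = 0.0155) and *Slc25a13* rose (0.49, edgeR adjusted p = 0.0230). *Slc17a5*, the lysosomal sialic acid exporter, fell (-0.43, edgeR adjusted p = 0.0495).

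No gene of the remaining lists was called, and the shares past the adjusted p in the mTORC1 sensing list (6.90%), the synthetases (2 of 20) and the glutamine and glutathione list (2 of 20) lay below the 14.0% of all genes tested. Of 29 tested genes for amino acid sensing by mTORC1, *Mlst8* (-0.42, edgeR adjusted p = 0.0166) and *Castor1*, an arginine sensor (-0.38, edgeR adjusted p = 0.0262), fell and none rose, while *Mtor* showed a log2 fold change of 0.07 (standard error 0.06, edgeR adjusted p = 0.483). Of 20 cytosolic aminoacyl-tRNA synthetases, *Rars* rose (0.41, edgeR adjusted p = 0.0327), *Wars* fell (-0.29, edgeR adjusted p = 0.0481) and the median was 0.04. Of 20 tested enzymes of glutamine, glutathione and branched-chain amino acid metabolism, *Bcat2* (-0.40, edgeR adjusted p = 0.0275) and *Bckdha* (-0.38, edgeR adjusted p = 0.0349), successive steps of branched-chain amino acid breakdown, fell. The median absolute log2 fold change of that list was 0.32, against 0.20 over all genes tested, and the groups did not overlap for 11 of its 20 genes (55.0%, against 39.9% of all genes), 3 higher and 8 lower in the *Ptch1*-ablated samples. The number called over the 6 lists was 0 without control replicate 2, 1 without control replicate 3, 2 without *Ptch1*-ablated replicate 1 and 8 without *Ptch1*-ablated replicate 3.

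The 16 members not detected had fewer than 10 counts in every sample, and 11 of them had at most 3 counts in every sample, which is the floor used here and corresponds to 0.145 to 0.148 CPM. They include the neuronal and renal carriers *Slc6a5*, *Slc6a7*, *Slc6a11*, *Slc6a12*, *Slc6a13*, *Slc6a15* and *Slc38a3*. *Slc7a10* rounded to 0 counts in all 6 samples. Among the tested members, the median coefficient of variation was 11.4% in the controls and 13.6% in the *Ptch1*-ablated samples, against 7.95% and 9.86% over all genes tested. Of the *Ptch1*-ablated samples, replicate 1 was farthest from the control mean for 15 of the 36 members, replicate 2 for 5 and replicate 3 for 16. Over all genes tested, replicate 1 was farthest from the control mean for 56.3%.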

How the data were processed

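Corneal epithelial RNA of 3 control and 3 *Ptch1*-ablated samples was sequenced by the authors, who aligned reads with Bowtie2 2.2.5 and quantified genes with RSEM 1.2.12. The submitters' processing notes name the mm9 build. For library preparation, the paper describes rRNA depletion and DNA nanoball sequencing, and the labels name an Illumina kit. The authors deposited expected counts, that is RSEM's unscaled read estimates per gene, and TPM values, which RSEM scales for length and depth. RSEM divides reads shared by similar genes.

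Expected counts were rounded and tested with edgeR 4.0.16 in R 4.3.3 (TMM factors, filterByExpr, quasi-likelihood test, Benjamini-Hochberg adjustment over 12999 genes). Normalized counts are CPM on TMM-scaled libraries times the mean scaled library. Standard errors are the absolute log2 fold change over the square root of F. TPM served to compare levels between genes. The 4 genes that were detected but not tested, and members at low counts, are limited by depth, and the floor of 3 counts covers counting error only. The labels do not say that samples came from separate animals, although the paper calls them biological replicates, and p-values measure the spread between these samples. An exact test of 3 against 3 cannot go below p = 0.1, so only model-based p-values are given. Samples of a group differed beyond sampling noise (chi-square over degrees of freedom, 10.5 to 40.0 between pairs). The test was tried on simulated data of 12892 genes, 200 of them shifted by 1.5 on the log2 scale, and it returned 98.5% of these, while 0.505% of its calls were false. The simulation gave every gene the same dispersion, shifted only genes above a minimum mean count and set no sample apart. Its rates therefore need not hold for these samples.

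The members and lists were chosen with earlier results of these data known. Named by rule were all members past the adjusted p, the 10 highest in the controls, the *Slc3* heavy chains, *Slc7a5* to *Slc7a11*, called genes of the related lists, *Atf4*, *Nfe2l2*, *Mtor*, leading and absent markers and *Ptch1*. Other named genes were chosen after their values were seen. The 8 family members missing from the table, such as *Slc38a5* and *Slc7a9*, were not analysed here. Alternatives were DESeq2 1.42.0, RLE and upper-quartile factors, no filter beyond 1 count, at least 10 counts in every sample, no minimum fold change, limma 3.58.1 on log2(TPM + 1) or log2(TPM + 0.1) for genes with a mean of at least 1 TPM, the former also without that filter, a replicate block, and each sample left out.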

Additional observations from a re-analysis of the deposited data

How the results depend on the processing

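The 3 calls among the members were the same in number with DESeq2, RLE or upper-quartile factors and no filter. With at least 10 counts in every sample *Slc7a2* was not tested, which left 2 called up and 0 down. Without a minimum fold change 6 members passed, 4 up and 2 down, and 22 genes of the related lists. With limma on log2(TPM + 1), log2(TPM + 0.1) or log2(TPM + 1) without a filter, 1 member was called (1 up and 0 down), *Slc38a2*. With the filter only 26 members were tested, *Slc7a2* not among them. In these 3 fits *Slc6a14* lay at 0.94, 0.95 and 0.94 (limma adjusted p = 0.0398, 0.0401 and 0.0741), short of 2-fold. *Slc7a2*, tested without the filter, lay at -0.62 (limma adjusted p = 0.0431). *Slc1a1* (limma adjusted p = 0.0514, 0.0523 and 0.0917) and *Slc6a4* (0.0598, 0.0601 and 0.103) passed in none of them. *Mtor* lay at -0.0184, -0.0192 and -0.0184 in the same fits. With each sample left out, 0 to 3 members were called (0 to 2 up, 0 to 1 down) and 0 to 8 genes of the related lists, and *Slc6a6* lay at -0.12 to 0.11, above 0 without control replicate 2 (0.07) and without *Ptch1*-ablated replicate 1 (0.11). The cause was not tested.

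Replicate numbers are shared between the groups but are not said to pair samples. Deviations of same-numbered samples correlated at 0.131, 0.0467 and 0.0594, and samples numbered 2 correlated better with another number (0.163). With the replicate block 390 genes were called in place of 420 and 2 members, of which 1 up, since *Slc6a14* had a log2 fold change of 0.99 (edgeR adjusted p = 0.0491), *Slc1a1* had an adjusted p of 0.0626, and *Atf4*, at 0.30, had an adjusted p of 0.0483 with the block, against 0.397 without.

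Over all genes, DESeq2 called 516 and limma on TPM 168 to 311. Members near the count minimum include *Slc38a1* and *Slc43a3*. For *Slc38a1*, control replicate 3 had 31 counts, against 6 and 4 in control replicates 1 and 2.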
